A study of Mus with 21 samples.

Results

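Gene expression in skin wounds filled with a bFGF hydrogel was compared with that in control wounds. The mean of the 3 bFGF groups, whose hydrogels had a pH of 6.4, 7.4 or 8.4 (named as in 6.4-GelMA/bFGF), was set against the control group over all 18806 genes of the count files. Each group had 3 libraries, so 12 of the 21 libraries of the series entered, 9 with bFGF and 3 controls. All groups were 8-week-old female C57BL/6 mice of WT genotype. They carried the same wounds, made with an 8 mm punch through the full skin on each side of the back. The wounds sequenced were collected on Day 4. The paper assigned 3 mice to each group and collected wounds on later days as well. A bFGF wound received GelMA, a methacrylated gelatin that sets into a gel, with 200 ng of bFGF, whereas the control received no hydrogel scaffold. The hydrogel and the growth factor therefore cannot be told apart in this comparison. The label of a replicate does not say whether 1 or both wounds of a mouse were sequenced, and the number of mice behind the 3 libraries of a group is not stated. The 9 aFGF libraries (the same gels with acidic FGF) were used to ask whether a gene differed between both growth factors, and in an alternative fit that took all 7 groups together.

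bFGF, the product of Fgf2, binds FGF receptors together with heparan sulfate and signals through the ERK kinases. Target genes of that signal include its own brakes, the Sprouty, Spred and dual-specificity phosphatase genes. In wounds bFGF is known as a mitogen of fibroblasts and endothelial cells. A mouse skin wound at this stage usually holds neutrophils and macrophages, a tongue of migrating keratinocytes at the edge and the first granulation tissue, in which fibroblasts lay down new matrix and metalloproteinases cut it.

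The 12 libraries had 34362558 to 37785975 counts each (median 36486027). Gene levels are given as CPM, the count scaled to a common library total with edgeR's TMM factors, and 3 counts in the shallowest library correspond to 0.0873 CPM. Markers of skin were high in all 12 libraries, with Krt14 of the basal epidermis at 1178 CPM or more and Col1a1 of fibroblasts at 9953 CPM or more. The libraries also differed in how much of other tissue they held, and the summed level of 36 skeletal muscle genes ran from 527.4 to 23220 CPM in the bFGF libraries and was 4274, 5429 and 13830 CPM in the controls. Control replicate 2 stood apart from the other controls. Its summed neutrophil genes reached 14470 CPM against 2317 and 1522 CPM in control replicates 1 and 3, and its summed adipocyte genes were 1864 CPM against 19740 and 11400 CPM. The comparison of the bFGF groups with the control is therefore given with and without it. In 8.4-GelMA/bFGF replicate 2, 93 genes had over 0.5 CPM and more than 8 times the level of the next library, with ovary and oviduct genes among them. The summed level of that list was 726.4 CPM there and 69.6 to 125.9 CPM in the other 11 libraries, and Inha, a subunit of the ovarian hormone inhibin, had 160.1 CPM against 1.36 to 3.94 CPM.

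With all 3 controls, no gene passed the test. Genes were called at an adjusted p under 0.05 in edgeR's quasi-likelihood test and a log2 fold change beyond 0.58, and 0 of 15507 tested genes (0%) were called, the smallest adjusted p being 0.0579, for Hmga2 and Ncapg2. At an unadjusted p under 0.05 there were 2135 genes (13.8%), 903 higher (5.82%) and 1232 lower (7.94%) with bFGF, and DESeq2 called 229. The median log2 fold change of all tested genes was -0.02. In 271 genes (1.75%) all 9 bFGF libraries lay above all 3 controls, and in 266 genes (1.72%) all lay below them.

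With control replicate 2 left out, 305 of 15759 genes were called (1.94%), of which 199 rose (1.26%) and 106 fell (0.673%) with bFGF. The median log2 fold change of all tested genes was -0.01, and 1955 genes (12.4%) were higher and 1882 (11.9%) lower at an unadjusted p under 0.05, 24.3% in all. Of the 305 called genes, 304 had also been tested with all 3 controls, 296 of them with the same direction and 161 with an unadjusted p under 0.05 in that direction. In 302 of the 305 the 9 bFGF libraries lay beyond both remaining controls, where 10.1% of all tested genes had all 9 above them and 8.6% all 9 below. In only 47, however, did they lie beyond all 3 controls, so that in 258 the library left out fell within the bFGF range or beyond it. The number of calls depended on single libraries. No gene was called when control replicate 1 or 3 was also left out, which leaves 1 control whose spread must be borrowed from the other groups, or when 6.4-GelMA/bFGF replicate 2 or 7.4-GelMA/bFGF replicate 2 was left out. There were 30 calls without 8.4-GelMA/bFGF replicate 2, 27 without 8.4-GelMA/bFGF replicate 3, 45 without 7.4-GelMA/bFGF replicate 1, 78 without 6.4-GelMA/bFGF replicate 3, 507 without 8.4-GelMA/bFGF replicate 1, 765 without 7.4-GelMA/bFGF replicate 3 and 803 without 6.4-GelMA/bFGF replicate 1. In what follows, rose and fell refer to the comparison without control replicate 2, and none of the genes passed the test with all 3 controls. Where a pair of log2 fold changes is given, the value with all 3 controls comes first. Counts within the gene lists are to be read against the shares of all tested genes given here and in the paragraph before.

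The 47 genes that were called and lay beyond all 3 controls comprised 24 that rose and 23 that fell. These groups were picked for not overlapping, and their values are a description. Hmga2, an architectural chromatin protein of embryonic and proliferating cells, had the smallest p with all 3 controls. Its level was 2.48, 2.63 and 1.35 CPM in the controls. In the bFGF libraries it ran from 8.06 to 15.9 CPM with a median of 10.4 CPM, so the lowest bFGF library stood well above the highest control. The log2 fold change was 2.37 (SE 0.27) with all 3 controls, where edgeR's adjusted p was 0.0579, and 2.55 (SE 0.32, adjusted p 0.0198 by edgeR) without control replicate 2. Hmga2 was also the gene called with all 3 controls when limma was run on FPKM values. It and Asb4 were the calls when all 7 groups shared 1 fit (adjusted p 0.00604 for Hmga2 by edgeR).

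Ncapg2, a subunit of the condensin complex that compacts mitotic chromosomes, had 25.4, 23.6 and 26.1 CPM in the controls and 35.9 to 51.5 CPM with bFGF (median 44.6). Its log2 fold change was 0.81 with all 3 controls and 0.77 (adjusted p 0.0362 by edgeR) without control replicate 2. Hells, a helicase needed for DNA methylation, had 11.9, 13.2 and 14.1 CPM in the controls and 17.1 to 27.4 CPM with bFGF (median 21.1), with log2 fold changes of 0.72 and 0.74. For both genes the 3 controls lay close together and below every bFGF library.

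Cdh2, the gene of N-cadherin, an adhesion protein of mesenchymal cells, had 6.64, 7.27 and 7.72 CPM in the controls and 10.6 to 15.0 CPM with bFGF (median 12.1). The log2 fold changes were 0.79 with all 3 controls and 0.80 without control replicate 2 (adjusted p 0.0440 by edgeR). Ccbe1, a secreted protein needed for lymphatic vessel growth, had 17.8, 28.2 and 12.5 CPM in the controls and 36.6 to 70.3 CPM with bFGF (median 49.2), a log2 fold change of 1.44 and 1.80. Srgap3, a regulator of small GTPases, had 7.91, 11.9 and 7.28 CPM in the controls and 16.0 to 24.5 CPM with bFGF, with log2 fold changes of 1.07 and 1.33. Grem1, a secreted BMP antagonist, had 2.40, 7.47 and 3.58 CPM in the controls and 7.71 to 25.6 CPM with bFGF, with log2 fold changes of 1.70 and 2.28. For these genes control replicate 2 was nearest to the bFGF range, except for Cdh2, in which the controls were alike.

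Among the genes that fell, Gatm, an enzyme of creatine synthesis, had 23.8, 28.8 and 33.6 CPM in the controls and 9.30 to 16.4 CPM with bFGF (median 13.9), a log2 fold change of -1.11 in both comparisons. Kcnn4, a calcium-activated potassium channel, had 21.7, 22.1 and 21.8 CPM in the controls and 7.63 to 13.5 CPM with bFGF, with log2 fold changes of -1.11 and -1.09. Clec12a, an inhibitory lectin receptor of myeloid cells, had 44.4, 37.9 and 53.0 CPM in the controls and 14.9 to 27.6 CPM with bFGF (median 19.6), with log2 fold changes of -1.17 and -1.27 (adjusted p 0.0362 by edgeR without control replicate 2). Gpnmb, a glycoprotein of lipid-laden macrophages, had 218, 135 and 272 CPM in the controls and 35.6 to 113 CPM with bFGF, with log2 fold changes of -1.44 and -1.67. Ccl11 (eotaxin), which draws eosinophils, had 65.3, 166 and 97.8 CPM in the controls and 22.5 to 54.7 CPM with bFGF, with log2 fold changes of -1.46 and -1.03. The bFGF libraries of these 5 genes were all below the lowest control. The wound tissue is a mixture, and fewer cells of a type cannot be told apart from less RNA per cell.

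**Figure D1:**
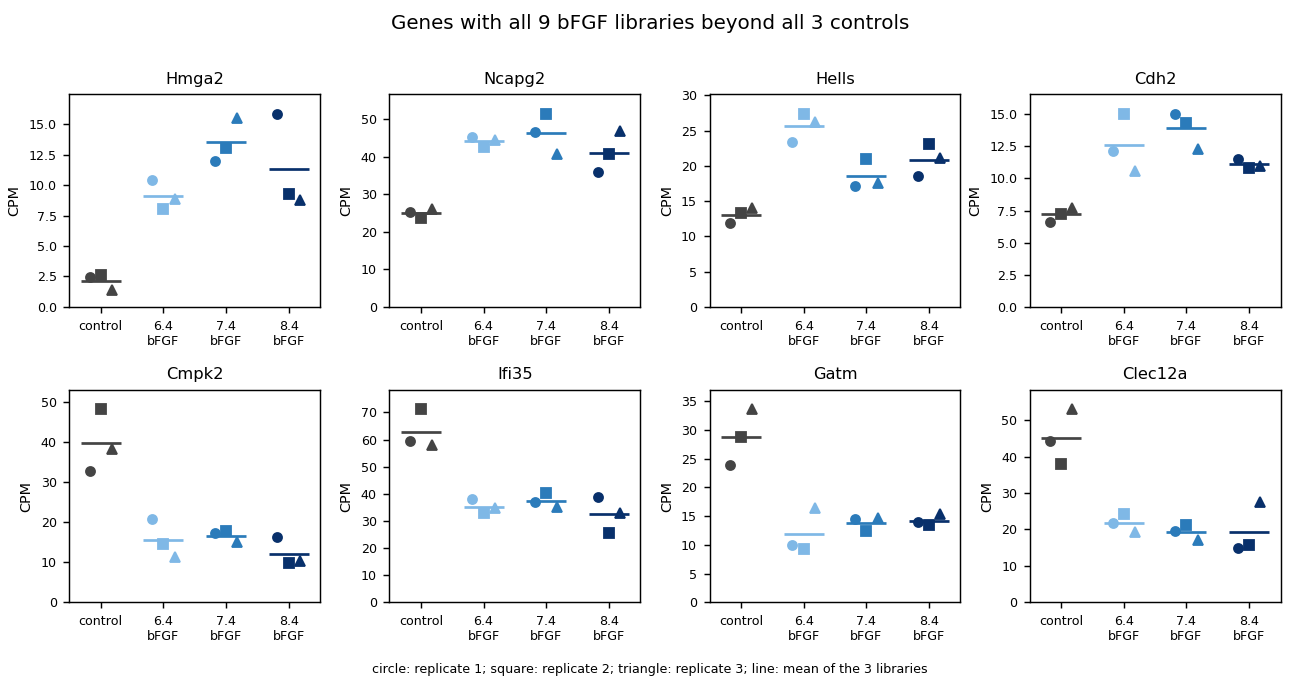
Levels in CPM (y axes, from 0) of 8 genes in the control and the 3 bFGF groups (x axes), with each library as a point and the group mean as a line. In the upper 4 genes all 9 bFGF libraries lay above the 3 controls (Hmga2 8.06 to 15.9 against 1.35 to 2.63 CPM), and in the lower 4 all lay below them (Cmpk2 9.94 to 20.8 against 32.7 to 48.2 CPM).

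Interferon response genes were lower with bFGF. All 70 tested genes of a 76-gene list had a negative log2 fold change with all 3 controls, 62 of them at an unadjusted p under 0.05 and none passing the adjusted threshold, and the median was -0.91 against -0.02 for all genes. In 29 of the 70 the bFGF libraries lay below all 3 controls, where 1.72% of all genes did. Without control replicate 2, which had the highest mean level of the list, the median was -0.47, 35 were lower and 1 higher at an unadjusted p under 0.05, and 5 fell, namely Cmpk2, Ifi35, Isg15, Rsad2 and Ifi27l2a. The mean level of the list, as log2(CPM + 2), was 5.96, 6.90 and 5.91 in the controls and 4.81 to 5.74 in the bFGF libraries (median 5.42). Even the highest bFGF library was below the lowest control, by a smaller margin than the gap between the controls.

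Cmpk2, a mitochondrial nucleotide kinase, had 32.7, 48.2 and 38.4 CPM in the controls and 9.94 to 20.8 CPM with bFGF (median 15.0). The log2 fold changes were -1.44 (SE 0.19, adjusted p 0.0806 by edgeR) with all 3 controls and -1.27 (SE 0.22, adjusted p 0.0398 by edgeR) without control replicate 2. Ifi35, an interferon-induced leucine zipper protein, had 59.3, 71.2 and 58.0 CPM in the controls and 25.4 to 40.2 CPM with bFGF, with log2 fold changes of -0.85 and -0.74. Both genes separated the groups without overlap, and both log2 fold changes were nearer to 0 without control replicate 2, the highest control.

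Isg15, a ubiquitin-like protein, had 89.8, 251 and 88.1 CPM in the controls and 25.6 to 62.9 CPM with bFGF, with log2 fold changes of -1.58 and -0.89. Rsad2 (viperin), an antiviral enzyme, had 50.9, 160.2 and 54.2 CPM in the controls and 18.8 to 44.6 CPM with bFGF, with log2 fold changes of -1.50 and -0.74. For both, control replicate 2 was far above the other controls, and the bFGF libraries were below all of them. Ifi27l2a was the reverse, with 684, 397 and 601 CPM in the controls and 104 to 395 CPM with bFGF, and log2 fold changes of -1.38 and -1.57. Cxcl10, the interferon-induced chemokine that draws T cells, had 21.1, 159 and 36.4 CPM in the controls and 10.2 to 21.6 CPM with bFGF. Its ranges overlapped, and its log2 fold change was -2.22 with all 3 controls (adjusted p 0.131 by edgeR) and -0.89 without control replicate 2, called in neither. Oas3 and Rnf213 had log2 fold changes of -1.03 and -0.55 with all 3 controls (adjusted p 0.268 and 0.228 by edgeR) and of -0.14 and -0.29 without control replicate 2, with the bFGF range reaching above control replicates 1 and 3 for Oas3 and above control replicate 3 for Rnf213 (191 to 295 against 254 CPM). Xaf1 (-1.01 and -0.75) and Ifit3b (-1.34 and -1.28) had all 9 bFGF libraries below the controls and were not called. Whether reads shared with close relatives were counted is not stated, which bears on Ifit3b and Ifi27l2a.

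Neutrophil genes moved with the choice of controls. Control replicate 2 was described above as standing apart by its high level of these same genes. Leaving it out therefore raises their values in advance, and the counts without it are a description. With all 3 controls, 26 of 31 tested genes had a positive log2 fold change, 2 at an unadjusted p under 0.05, with a median of 0.58. Without control replicate 2 the median was 2.67, 25 were higher and none lower at an unadjusted p under 0.05, and 7 rose, namely Camp, Clec4d, Clec5a, Fpr1, Fpr2, Mmp8 and Mmp9. The summed level of the list was 2317, 14470 and 1522 CPM in the controls and 5093 to 18620 CPM with bFGF (median 7733), so all 9 bFGF libraries exceeded control replicates 1 and 3 and control replicate 2 lay inside their range. Fpr1, the receptor for bacterial formyl peptides, had 6.96, 87.0 and 6.61 CPM in the controls and 37.5 to 157 CPM with bFGF, with log2 fold changes of 1.24 and 3.55. Camp, an antimicrobial peptide of neutrophil granules, was close to the floor in control replicates 1 and 3 (0.03 and 0.06 CPM) and had 1.26 CPM in control replicate 2 and 0.58 to 2.21 CPM with bFGF. Mmp9, the gelatinase of neutrophils and migrating cells, had 92.8, 341 and 78.5 CPM in the controls and 261 to 645 CPM with bFGF (median 447). Its log2 fold changes were 1.38 (adjusted p 0.246 by edgeR) and 2.38 (adjusted p 0.0198 by edgeR).

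The median of the inflammatory cytokines and chemokines changed sign with that library. With all 3 controls the median of 49 tested genes was -0.21, 33 of them being negative. Without control replicate 2 the median was 1.25, 23 were higher and 4 lower at an unadjusted p under 0.05, Csf3, Nos2 and Socs3 rose and Ccl11 fell. Csf3, the growth factor of neutrophils, had 2.85, 88.8 and 1.32 CPM in the controls and 12.4 to 90.6 CPM with bFGF. Nos2, the inducible nitric oxide synthase, had 15.5, 943 and 9.37 CPM in the controls and 78.0 to 663 CPM with bFGF (median 193). Socs3, the feedback inhibitor of cytokine receptors, had 114, 1046 and 105 CPM in the controls and 259.5 to 612 CPM with bFGF (median 353). In each of the 3 genes control replicate 2 was close to or above the highest bFGF library and the other controls were below the lowest, and with all 3 controls the log2 fold changes were 0.45 for Csf3, -0.20 for Nos2 and -0.07 for Socs3, none of them called. Tslp and Ccl27a, cytokines of the epidermis, had negative values in both comparisons, with log2 fold changes of -2.08 and -1.38 with all 3 controls (adjusted p 0.114 and 0.131 by edgeR) and of -1.42 and -1.34 without control replicate 2. Il15, a growth factor of NK cells, had 10.1, 27.9 and 10.6 CPM in the controls and 7.06 to 22.0 CPM with bFGF, and Tnfsf14 had 11.7, 71.3 and 3.97 CPM against 14.3 to 52.5 CPM. Neither was called.

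**Figure D2:**
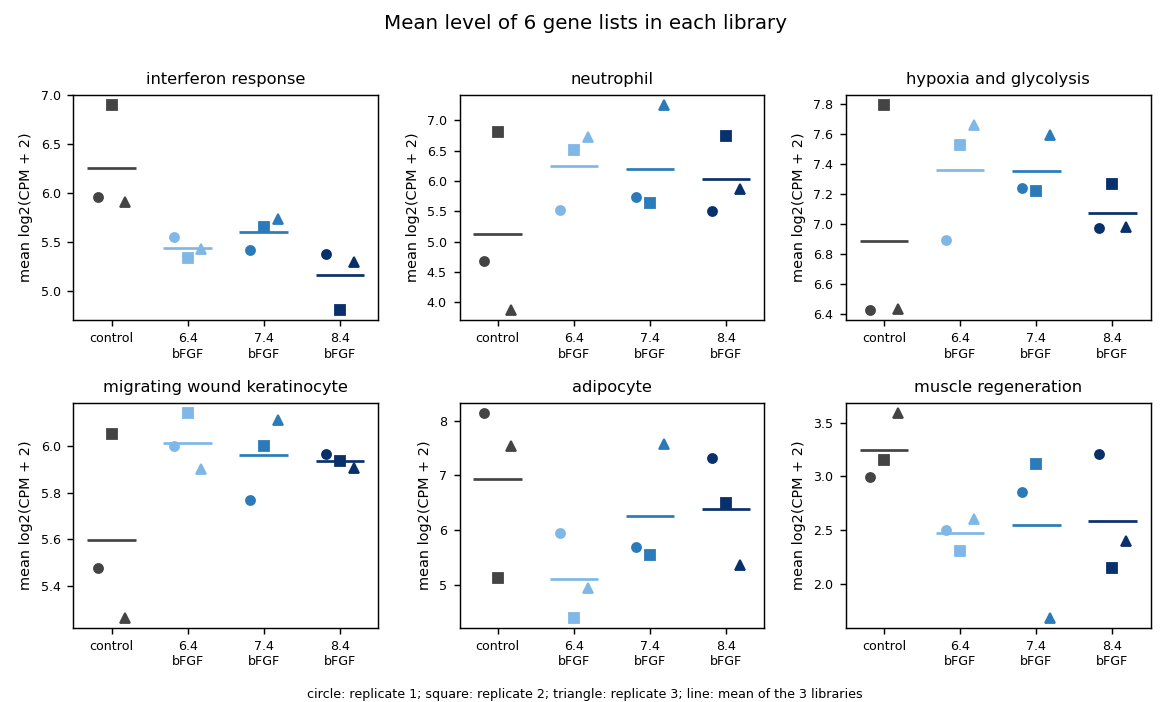
Mean log2(CPM + 2) over the tested genes of 6 lists (y axes) in each library of the control and the 3 bFGF groups (x axes), with group means as lines. The interferon level of all 9 bFGF libraries (4.81 to 5.74) was below the 3 controls (5.91 to 6.90), whereas the neutrophil level of control replicate 2 (6.81) lay within the bFGF range (5.51 to 7.25) and those of the other controls (4.69 and 3.88) below it.

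Genes of migrating wound keratinocytes were mostly higher with bFGF. With all 3 controls, 30 of 37 genes had a positive log2 fold change, 8 at an unadjusted p under 0.05, with 2 lower and a median of 0.28. In none of the 37 did all 9 bFGF libraries lie above all 3 controls. The mean level of the list, as log2(CPM + 2), was 5.476, 6.049 and 5.265 in the controls and 5.766 to 6.14 with bFGF. Control replicate 2 thus lay inside the bFGF range and the other controls below it. When control replicate 2 was left out, the median was 0.76, 25 were higher and 2 lower at an unadjusted p under 0.05. Then Gjb2, Hbegf, Itga2, Itga5, Sox11, Sprr2d, Sprr2e and Tgfa rose and Plau fell. Hbegf and Tgfa, ligands of the EGF receptor, had 9.22, 35.0 and 11.3 CPM and 8.67, 19.3 and 9.07 CPM in the controls, against 19.7 to 30.3 CPM and 15.1 to 24.5 CPM with bFGF. They rose by 1.27 and 1.12 on the log2 scale, against 0.41 and 0.63 with all 3 controls. Itga2 and Itga5, integrins that bind collagen and fibronectin, rose by 1.33 and 0.85 (0.45 and 0.23 with all 3 controls), with control replicate 2 (39.6 and 401 CPM) close to or above the top of the bFGF range (37.3 and 406 CPM). The cornified envelope genes Sprr2d and Sprr2e rose by 2.70 and 3.38 (1.15 each with all 3 controls), but belong to a family of near-identical copies and are uncertain. The laminin genes Lama3 and Lamb3 of the basement membrane had log2 fold changes of 0.88 and 0.67 with all 3 controls and of 1.1 and 0.88 without control replicate 2, and were not called. Plau, the urokinase gene, had 82.7, 85.4 and 119 CPM in the controls and 54.6 to 67.9 CPM with bFGF. Its log2 fold changes were -0.62 and -0.69 (adjusted p 0.102 and 0.0398 by edgeR), and here all 3 controls were above all bFGF libraries.

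The other epidermal lists held few calls. Of 18 basal epidermis genes, Grhl3 and Dsg3 rose by 1.25 and 0.93 on the log2 scale without control replicate 2 (0.47 and 0.62 with all 3 controls), and the median of the list was 0.12 with all 3 controls and 0.17 without it. Of 36 tested differentiation and barrier genes, 26 were negative with all 3 controls, the median was -0.29 (-0.152 without control replicate 2), and none was called in either comparison. Krt77 had 75.8, 162 and 151 CPM in the controls and 6.98 to 78.2 CPM with bFGF (log2 fold changes -1.89 and -1.68), and Ivl, a cornified envelope precursor, had 19.5, 18.2 and 31.6 CPM against 4.65 to 30.6 CPM (-1.04 and -1.18). Both overlapped the controls in at least 1 library. Of 18 tested hair follicle genes, 13 were negative with all 3 controls. The median was -0.71, and it was -1.03 without control replicate 2 and -1.17 without 8.4-GelMA/bFGF replicate 2. Gata3, a regulator shared by the inner root sheath and T cells, fell, with 24.4, 17.0 and 21.1 CPM in the controls and 5.96 to 16.4 CPM with bFGF.

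Among metalloproteinases and their inhibitors, the members that rose were secreted collagenases, stromelysins and the gelatinase Mmp9. Against control replicates 1 and 3 alone, 6 of 37 tested genes rose (Mmp1b, Mmp3, Mmp8, Mmp9, Mmp10 and Mmp13) and Mmp28 fell, the median being 0.34. Of all tested genes 1.26% rose and 0.673% fell. Mmp8 and Mmp9 belong to the neutrophil list as well and were already counted there. Over the 3 controls, the median of 36 was 0.19 and none was called. Mmp10 (stromelysin 2), a product of keratinocytes at the wound edge, had 1.5, 9.47 and 0.882 CPM in the controls and 12.2 to 60.9 CPM with bFGF (median 22.2). It was the only one of the 7 beyond all 3 controls, with log2 fold changes of 2.71 (SE 0.80, adjusted p 0.234 by edgeR) and 4.43 (SE 0.74, adjusted p 0.0384 by edgeR). Mmp3 (stromelysin 1) had 268, 599 and 221 CPM in the controls and 447 to 1364 CPM with bFGF (median 806), with log2 fold changes of 1.13 and 1.70. Mmp13, the main interstitial collagenase of mice, had 21.1, 126 and 19.3 CPM in the controls and 62.7 to 225 CPM with bFGF (median 98.5), with log2 fold changes of 0.93 and 2.39. Mmp8, the neutrophil collagenase, had 8.41, 56.0 and 5.15 CPM in the controls and 36.4 to 264 CPM with bFGF (2.12 and 3.89). Mmp1b had 0.316, 1.83 and 0.220 CPM in the controls and 1.06 to 3.51 CPM with bFGF, so that control replicate 2 lay in the bFGF range. Mmp28 of the intact epidermis had 21.8, 4.52 and 14.0 CPM in the controls and 3.92 to 10.8 CPM with bFGF.

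Fibroblast matrix genes split into a few that rose and a majority that passed no test. Of 62 genes, 41 were positive and 21 negative with all 3 controls (median 0.19), with 12 higher and 6 lower at an unadjusted p under 0.05. Of all tested genes 5.82% were higher and 7.94% lower, so the 6 lower genes were close to the share of all genes. With control replicate 2 left out, Lox, Ltbp2, P4ha1, Tnc and Vcan rose, where 1.26% of all genes did, and the median was 0.11. Ltbp2, a latent TGF-beta binding protein of microfibrils, had 58.0, 99.0 and 51.9 CPM in the controls and 124 to 255 CPM with bFGF (median 169). The log2 fold changes were 1.28 (SE 0.22, adjusted p 0.0961 by edgeR) and 1.63 (SE 0.19, adjusted p 0.0198 by edgeR), and no bFGF library overlapped a control. Lox, the lysyl oxidase that crosslinks collagen, had 439, 881 and 362 CPM in the controls and 737 to 1474 CPM with bFGF (median 1079), with log2 fold changes of 0.94 and 1.43. Tnc (tenascin C), a glycoprotein of provisional matrix, had 822, 3300.2 and 732 CPM in the controls and 1926 to 3908 CPM with bFGF (0.85 and 1.92). Vcan, a proteoglycan, and P4ha1, a collagen prolyl hydroxylase, rose by 0.87 and 0.99, against 0.50 and 0.57 with all 3 controls.

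The main fibrillar collagens did not separate the groups. Col1a1 had 12490.0, 11382 and 13337 CPM in the controls and 9953 to 22136 CPM with bFGF, and Col3a1 had 20911, 18439 and 20991 CPM against 17259 to 28989 CPM. The highest bFGF libraries were in the groups of pH 6.4 and 8.4, whose own replicates differed widely. Col12a1, a collagen that decorates fibrils, had 586, 651 and 550.3 CPM in the controls and 727 to 1364 CPM with bFGF, and Loxl3, a lysyl oxidase relative, had 75.4, 75.0 and 81.1 CPM against 96.0 to 134 CPM. All 9 bFGF libraries were above the controls for both, but neither was called (log2 fold changes 0.65 and 0.56 with all 3 controls), Loxl3 having an adjusted p of 0.0485 by edgeR without control replicate 2 at a log2 fold change of 0.55. Of 26 myofibroblast and smooth muscle genes none was called, and Acta2, the marker of contractile myofibroblasts, had 317, 164 and 299.8 CPM in the controls and 159 to 341 CPM with bFGF.

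**Figure D3:**
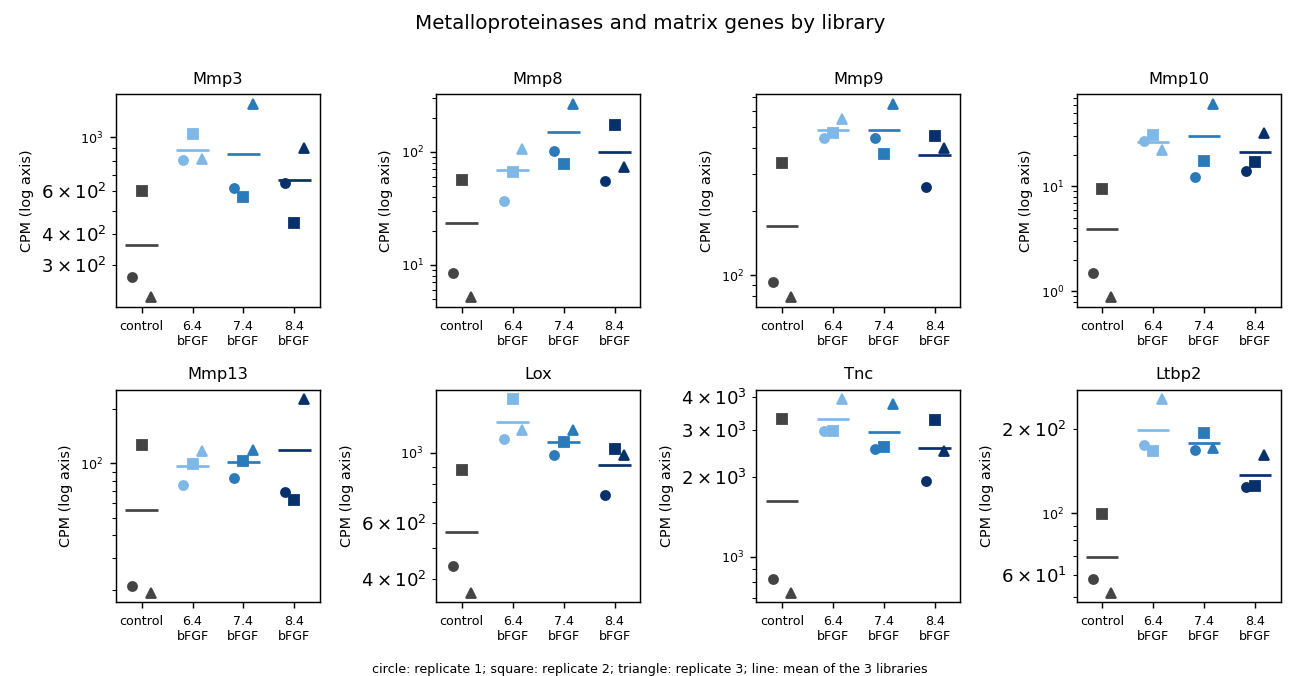
Levels in CPM (y axes, log scale) of 5 metalloproteinase and 3 matrix genes in each library of the control and the 3 bFGF groups (x axes), with group means as lines. Control replicate 2 (square) lay far above the other controls in Mmp8, Mmp9, Mmp13 and Tnc (Tnc 3300.2 against 822 and 732 CPM) and inside the bFGF range, and stayed below it in Mmp10 and Ltbp2 (99.0 against 124 to 255 CPM).

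Hypoxia and glycolysis genes followed the neutrophil genes across the controls. Over the 3 controls, 31 of 39 tested genes were positive, 2 at an unadjusted p under 0.05 (median 0.26). When control replicate 2 was left out, the median was 0.78, 31 were higher and none lower at an unadjusted p under 0.05, and Car9, Egln3, Hif1a and P4ha1 rose. Egln3, an oxygen-sensing prolyl hydroxylase that HIF itself induces, had 34.4, 223 and 41.2 CPM in the controls and 82.5 to 202 CPM with bFGF, with log2 fold changes of 0.46 and 1.86. Hif1a had 257, 744 and 182 CPM in the controls and 364 to 731 CPM with bFGF (0.43 and 1.28), and Car9, a carbonic anhydrase, had 1.13, 3.61 and 1.85 CPM against 2.81 to 6.49 CPM (0.88 and 1.44). The neutrophil genes were high in the same libraries, and their part in this result was not tested. Mitochondrial respiration and ribosomal protein genes lay slightly to the other side. Over the 3 controls, 63 of 64 respiration genes and 68 of 68 ribosomal protein genes were negative, with medians of -0.20 and -0.19 (-0.295 and -0.179 without control replicate 2) and no call in either comparison.

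The FGF pathway itself showed few differences. Of 26 tested ligands, receptors and co-receptors, 19 were negative with all 3 controls (median -0.33), with none higher and 5 lower at an unadjusted p under 0.05. The median was -0.06 without control replicate 2, with 2 higher and 4 lower, where 12.4% of all genes were higher and 11.9% lower. Fgf2, the endogenous mouse gene of bFGF, had 4.43, 5.18 and 5.62 CPM in the controls and 2.69 to 5.86 CPM with bFGF. Fgf1, the aFGF gene, had 8.01, 4.52 and 10.9 CPM against 4.94 to 19.6 CPM. Fgfr1, the receptor of mesenchymal cells, had 245, 221 and 291 CPM against 205 to 326 CPM, and the ranges of all 3 genes overlapped. Fgfr2, which epithelial cells use, had 50.2, 16.2 and 33.8 CPM in the controls and 7.65 to 34.4 CPM with bFGF (log2 fold changes -1.11 and -1.44, adjusted p 0.315 and 0.1 by edgeR). Fgf10, its ligand, had 31.0, 2.43 and 17.7 CPM in the controls and 3.02 to 18.1 CPM with bFGF (-1.43 and -1.95, adjusted p 0.351 and 0.0662 by edgeR). Fgf7, the other keratinocyte growth factor, had 26.0, 66.9 and 26.7 CPM in the controls and 39.6 to 88.5 CPM with bFGF. Its log2 fold change was 0.62 with all 3 controls. Without control replicate 2 it rose by 1.22 (adjusted p 0.0441 by edgeR), the only call of this list.

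The 24 feedback and target genes of FGF and ERK signalling had a median of -0.05 with all 3 controls and 0.01 without control replicate 2, against -0.02 and -0.01 for all genes. At an unadjusted p under 0.05, 1 was higher and 4 lower with all 3 controls. Without control replicate 2, 7 were higher and 3 lower, where 12.4% of all genes were higher and 11.9% lower. Fosl1, an AP-1 subunit, and Spred3, an inhibitor of ERK signalling, rose by 2.67 and 1.31 without control replicate 2 (0.75 and 0.49 with all 3 controls). Fosl1 had 4.35, 35.9 and 3.28 CPM in the controls and 12.9 to 41.8 CPM with bFGF. Dusp6 and Spry4, feedback genes of the same signal, were not called, with Dusp6 at 53.8, 105 and 66.1 CPM in the controls and 70.3 to 139.5 CPM with bFGF, and Spry4 at 7.43, 11.2 and 8.21 CPM against 8.16 to 17.0 CPM. The ETS factor Etv4 had log2 fold changes of 0.48 and 0.54, Egr2 of -1.12 and -1.20, Dusp4 of -0.79 and -0.96 and Ccnd1 of -0.43 and -0.63, none of them called. The bFGF libraries of Egr2 (11.1 to 25.3 CPM) lay below all 3 controls (27.8, 32.3 and 49.9 CPM). Of 14 tested oncofetal growth genes, Hmga2 and Tnc rose and the median was 0.33 with all 3 controls and 0.51 without control replicate 2.

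Adipocyte and muscle regeneration genes had negative values with wide spread. Each of the 23 adipocyte genes was on the negative side with all 3 controls (median -1.29, 4 at an unadjusted p under 0.05) and the median was -1.79 without control replicate 2 (19 at an unadjusted p under 0.05), yet none was called. The summed level was 19740, 1864 and 11400 CPM in the controls and 1104 to 13320 CPM with bFGF (median 2978). Since control replicate 2 was described as standing apart by its low level of this list, leaving it out lowers these values in advance. Lpl, the lipoprotein lipase, had 1896, 169.6 and 1293 CPM in the controls and 93.3 to 1041 CPM with bFGF. Cebpa, a transcription factor of fat cells, had 459.8, 193 and 343 CPM against 133 to 299 CPM. Control replicate 2 lay among the bFGF libraries for both. Outside the list, Nnat and Sncg, neuronal genes that fat cells also express, fell by 3.70 and 2.10 on the log2 scale without control replicate 2 (-3.14 and -1.60 with all 3 controls). Nnat had 92.8, 1.80 and 87.3 CPM in the controls and 1.09 to 29.3 CPM with bFGF. Of 18 muscle regeneration genes, 17 were negative with all 3 controls (median -1.17, and -1.31 without control replicate 2, 7 at an unadjusted p under 0.05 in each) and 5 had all bFGF libraries below the 3 controls. Of all tested genes 1.72% lay below the 3 controls in this way. At an unadjusted p under 0.05, 7.94% of all genes were lower with all 3 controls and 11.9% without control replicate 2. Myog, the myogenic factor of differentiating muscle cells, had 10.9, 11.0 and 17.4 CPM in the controls and 0.737 to 6.96 CPM with bFGF, and Myh8, the perinatal myosin, had 20.7, 28.0 and 44.1 CPM against 1.94 to 19.9 CPM. Neither was called (log2 fold changes -1.54 and -1.88 with all 3 controls, -1.64 and -1.93 without control replicate 2). The 36 genes of mature skeletal muscle had a median of 0.16 (-0.02 without control replicate 2), with none at an unadjusted p under 0.05.

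Macrophage, T cell and mast cell genes were lower in part. Of 35 macrophage genes 24 were negative with all 3 controls (median -0.30), with none higher and 10 lower at an unadjusted p under 0.05. The median was -0.141 without control replicate 2, with 2 higher and 10 lower, where 12.4% of all genes were higher and 11.9% lower. Retnla and Mgl2, markers of alternatively activated macrophages, had 76.3, 112 and 208 CPM and 50.7, 38.6 and 90.5 CPM in the controls, and 2.63 to 66.1 CPM and 3.40 to 25.4 CPM with bFGF. All 9 bFGF libraries of both were below the controls, and neither was called (log2 fold changes -2.63 and -1.90 with all 3 controls, adjusted p 0.206 and 0.169 by edgeR, and -2.73 and -2.13 without control replicate 2). Fcgr1, the high-affinity IgG receptor, had 138, 225 and 117 CPM against 60.3 to 114 CPM. Arg1 and Nos2 rose and Gpnmb fell without control replicate 2, and Arg1 had 215, 1509 and 109.7 CPM in the controls and 301 to 1833 CPM with bFGF. Mrc1, another marker of alternative activation, had 837, 690.4 and 833 CPM against 395 to 1029.6 CPM, and Ccr7 had 12.5, 37.6 and 12.3 CPM against 5.87 to 26.7 CPM. Both overlapped. Atp6v0d2, a proton pump subunit of macrophages and osteoclasts, fell by 2.33 on the log2 scale without control replicate 2 (-1.93 with all 3 controls), with 27.8, 6.67 and 24.8 CPM in the controls and 2.72 to 7.46 CPM with bFGF.

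Of 31 tested T and NK cell genes, 29 were negative with all 3 controls (median -0.85), but the median was -0.05 without control replicate 2. Cd28, the T cell costimulatory receptor, had 3.82, 4.29 and 3.94 CPM in the controls and 0.766 to 2.20 CPM with bFGF, and fell with Gata3. Their log2 fold changes were -1.56 and -1.26 with all 3 controls and -1.50 and -1.38 without control replicate 2. Of 16 tested mast cell genes 13 were negative (median -0.36, and -0.189 without control replicate 2), and the proteases Cma1 and Mcpt4 had all 9 bFGF libraries below the controls, at 27.3 to 57.1 CPM and 26.1 to 64.6 CPM against 57.3 to 94.2 CPM and 73.0 to 91.8 CPM, without being called. Of 21 tested Schwann cell and melanocyte genes 19 were negative (median -0.43, and -0.607 without control replicate 2). Sox10, the factor that both cell types need, had 11.0, 6.90 and 11.5 CPM in the controls and 2.86 to 6.89 CPM with bFGF, and Ngfr, the low-affinity neurotrophin receptor, had 11.5, 10.0 and 21.9 CPM against 3.78 to 8.07 CPM. Both fell, with log2 fold changes of -1.31 and -1.14 with all 3 controls and -1.51 and -1.34 without control replicate 2.

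Most cell cycle and endothelial genes had small positive values. Of 54 cell cycle genes 49 were positive with all 3 controls (median 0.28), with 13 higher and none lower at an unadjusted p under 0.05. Of all tested genes 5.82% were higher and 7.94% lower there. Without control replicate 2 the median was 0.14, with 7 of the 54 higher, a share close to the 12.4% of all genes. None of the 54 was called in either comparison, and none had all 9 bFGF libraries above the 3 controls. Mybl2 and Ccne2, the latter a cyclin of the entry into DNA synthesis, had log2 fold changes of 0.63 and 0.74 with all 3 controls (adjusted p 0.163 and 0.145 by edgeR). Without control replicate 2 the values were 0.64 and 0.61, and in each gene at least 1 bFGF library overlapped a control. Of 38 tested endothelial genes 31 were positive (median 0.32, and 0.40 without control replicate 2). Flt4, the lymphatic VEGF receptor, had 11.3, 13.7 and 14.4 CPM in the controls and 16.2 to 26.0 CPM with bFGF (0.68 and 0.72, not called), whereas Pecam1 overlapped, with 233, 199.8 and 159.6 CPM against 157 to 376 CPM. Apold1, a gene of activated endothelium, overlapped as well, with 14.3, 15.7 and 12.7 CPM against 9.62 to 49.7 CPM. Against control replicates 1 and 3 alone, Apln, a ligand of sprouting vessels, rose by 1.34 on the log2 scale and Vegfb fell by 0.86 (0.52 and -0.53 with all 3 controls). In the Wnt and BMP list of 42 tested genes, the antagonist Grem1 was among the genes that rose and Wnt7b fell, the latter with 6.77, 4.15 and 6.12 CPM in the controls and 1.1 to 3.09 CPM with bFGF. Wnt5a, a non-canonical ligand of fibroblasts, had 29.3, 31.9 and 26.3 CPM against 32.1 to 59.3 CPM, and Wnt3 had 1.42, 1.92 and 2.09 CPM against 0.383 to 1.12 CPM. The ranges of both were separate, and neither was called.

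The remaining lists gave no call in either comparison. The medians with all 3 controls were 0.01 for 35 genes of the unfolded protein response and secretion, -0.14 for 37 genes of lipid and sterol synthesis, -0.20 for 11 tested red blood cell genes and 0.37 for 11 tested ovary and oviduct genes, the last being high in 1 library. Without control replicate 2 they were 0.13, -0.209, -0.25 and 0.819. Scd2, a fatty acid desaturase, had 207, 205 and 195 CPM in the controls and 262 to 445 CPM with bFGF, with no overlap and log2 fold changes of 0.59 and 0.61 that were not called. Among genes outside the lists with the smallest adjusted p without control replicate 2, Htr1b, a serotonin receptor, rose by 2.03, Ugcg, the glucosylceramide synthase, by 0.92, Slc39a14, a zinc and iron transporter, by 1.70, En1, the homeobox gene of a dorsal fibroblast lineage, by 1.59 and Ass1, an enzyme of arginine synthesis, by 1.46 on the log2 scale, against 0.96, 0.40, 0.51, 0.93 and 0.17 with all 3 controls. Bhlhe41, a repressor of the circadian clock, fell by 1.68 and Cyp4b1, a monooxygenase, by 1.28 (-1.37 and -0.95 with all 3 controls). In control replicate 2, Htr1b, Ugcg, Slc39a14 and Ass1 were above the median of the bFGF libraries and En1 (26.0 CPM) just below it (26.6 CPM), as in Slc39a14, with 127, 502 and 80.3 CPM in the controls and 274 to 455 CPM with bFGF.

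**Figure D4:**
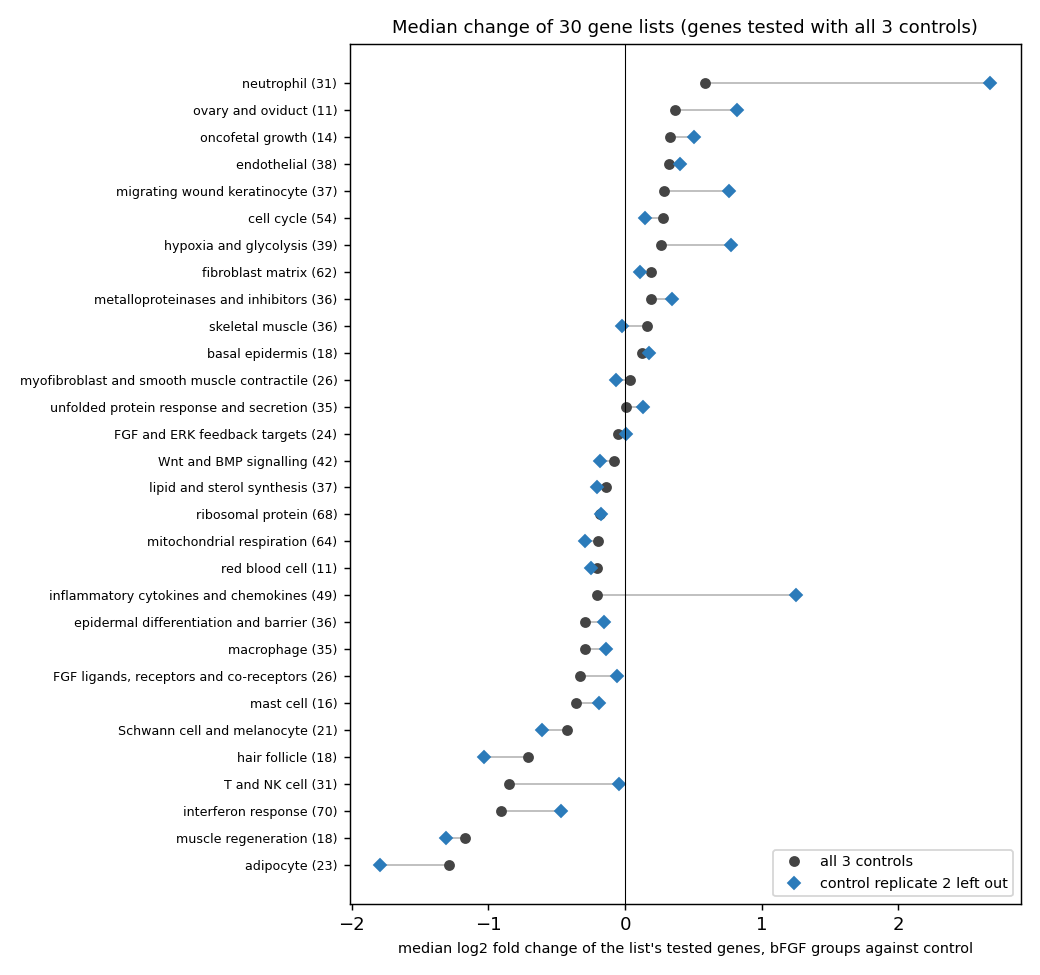
Median log2 fold change (x axis) of the tested genes of 30 lists (y axis, with the number tested), for the bFGF groups against all 3 controls (circles) and without control replicate 2 (diamonds). The medians of the neutrophil list (0.58 and 2.67) and of inflammatory cytokines (-0.21 and 1.25) moved most, while interferon (-0.91 and -0.47), muscle regeneration (-1.17 and -1.31) and adipocyte genes (-1.29 and -1.79) were negative in both.

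The 3 pH groups were also set against the control singly, sharing its libraries. No gene was called at any pH (0%), the smallest adjusted p in edgeR being 0.17 for 6.4-GelMA/bFGF, 0.0684 for 7.4-GelMA/bFGF and 0.16 for 8.4-GelMA/bFGF, and 1973 (12.7%), 1471 (9.49%) and 1670 (10.8%) genes had an unadjusted p under 0.05. Of these, 871 (5.62%), 681 (4.39%) and 744 (4.8%) were higher with bFGF and 1102 (7.11%), 790 (5.09%) and 926 (5.97%) lower. DESeq2 called 216, 80 and 155 genes. With control replicate 2 left out, 464, 5 and 0 genes were called by edgeR. The log2 fold changes of Hmga2 were 2.08, 2.65 and 2.39 at pH 6.4, 7.4 and 8.4, those of Cmpk2 -1.36, -1.26 and -1.71, and those of Ltbp2 1.52, 1.35 and 0.98. When the 3 bFGF groups were compared with each other, no gene reached an adjusted p under 0.05 (0%) in edgeR's quasi-likelihood F test (smallest 0.843), 816 (5.26%) had an unadjusted p under 0.05, and DESeq2 called 16. Differences between the pH values among the bFGF hydrogels were thus not detectable by edgeR with 3 libraries each.

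The bFGF groups were then set against the aFGF groups, a contrast that does not take its difference from the control libraries, although these entered the fit and share in its estimate of the spread. Of 15811 genes tested, 506 were called (3.2%), 275 higher (1.74%) and 231 lower (1.46%) with bFGF, and leaving out any 1 library gave 269 to 714 calls, the fewest without 6.4-GelMA/bFGF replicate 1. At an unadjusted p under 0.05, 2113 genes (13.4%) were higher and 2318 (14.7%) lower, 28% in all. Hmga2 had 4.16 to 10.2 CPM with aFGF (median 5.76) and was higher with bFGF by 0.85 on the log2 scale (SE 0.18, adjusted p 0.0109 by edgeR). The aFGF libraries were all above the controls (at most 2.63 CPM) and overlapped the lower bFGF libraries. Ltbp2 (49.5 to 153 CPM with aFGF), Ccbe1 (8.28 to 40.1), Cdh2 (5.16 to 10.2) and Srgap3 (3.59 to 18.4) were higher with bFGF by 1.03, 1.24, 0.70 and 0.88, and each aFGF range reached below the lowest control. Wnt5a, Col12a1 and Scd2 were higher with bFGF by 1.00, 0.63 and 0.85. Of the metalloproteinases and inhibitors, 4 were called higher with bFGF and 2 lower. Mmp10, Mmp11, Mmp12 and Mmp13 were higher by 1.59, 1.07, 2.37 and 1.54. Mmp19 and Adamts9 differed by -1.67 (adjusted p 9.89e-05 by edgeR) and -0.764. For Mmp13 the aFGF range (23.9 to 58.4 CPM) lay wholly below the bFGF range.

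Other genes were lower with bFGF than with aFGF. Il24, a cytokine of the IL-10 family made by stressed keratinocytes, had 1.21, 1.40 and 0.992 CPM in the controls, 1.51 to 4.02 CPM with bFGF and 3.10 to 8.66 CPM with aFGF, a log2 difference of -1.39 (adjusted p 0.00551 by edgeR). Itga5 and Grhl3 differed by -0.79 each, with aFGF libraries at 307 to 687 CPM and 14.9 to 22.8 CPM. Ccl11 (32.5 to 139 CPM with aFGF), Wnt7b (1.78 to 5.46) and Fcgr1 (80.2 to 271) differed by -1.14, -0.80 and -0.66. Of the 70 interferon genes, 4 were called lower with bFGF than with aFGF and none higher (median -0.44), namely Dhx58, Ifi209, Rtp4 and Slfn8, while Cmpk2 and Ifi35 were not called (adjusted p 0.0528 and 0.0601 by edgeR). Of the 24 FGF and ERK feedback and target genes, 3 were called lower with bFGF and none higher, namely Areg (-1.61), Egr3 (-0.766) and Phlda1 (-1). Of the 37 genes of migrating wound keratinocytes, 5 were called lower and none higher, namely Areg, Epgn, Ereg, Itga3 and Itga5. None of the 31 neutrophil genes and none of the 39 hypoxia genes was called between the growth factors.

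**Figure D5:**
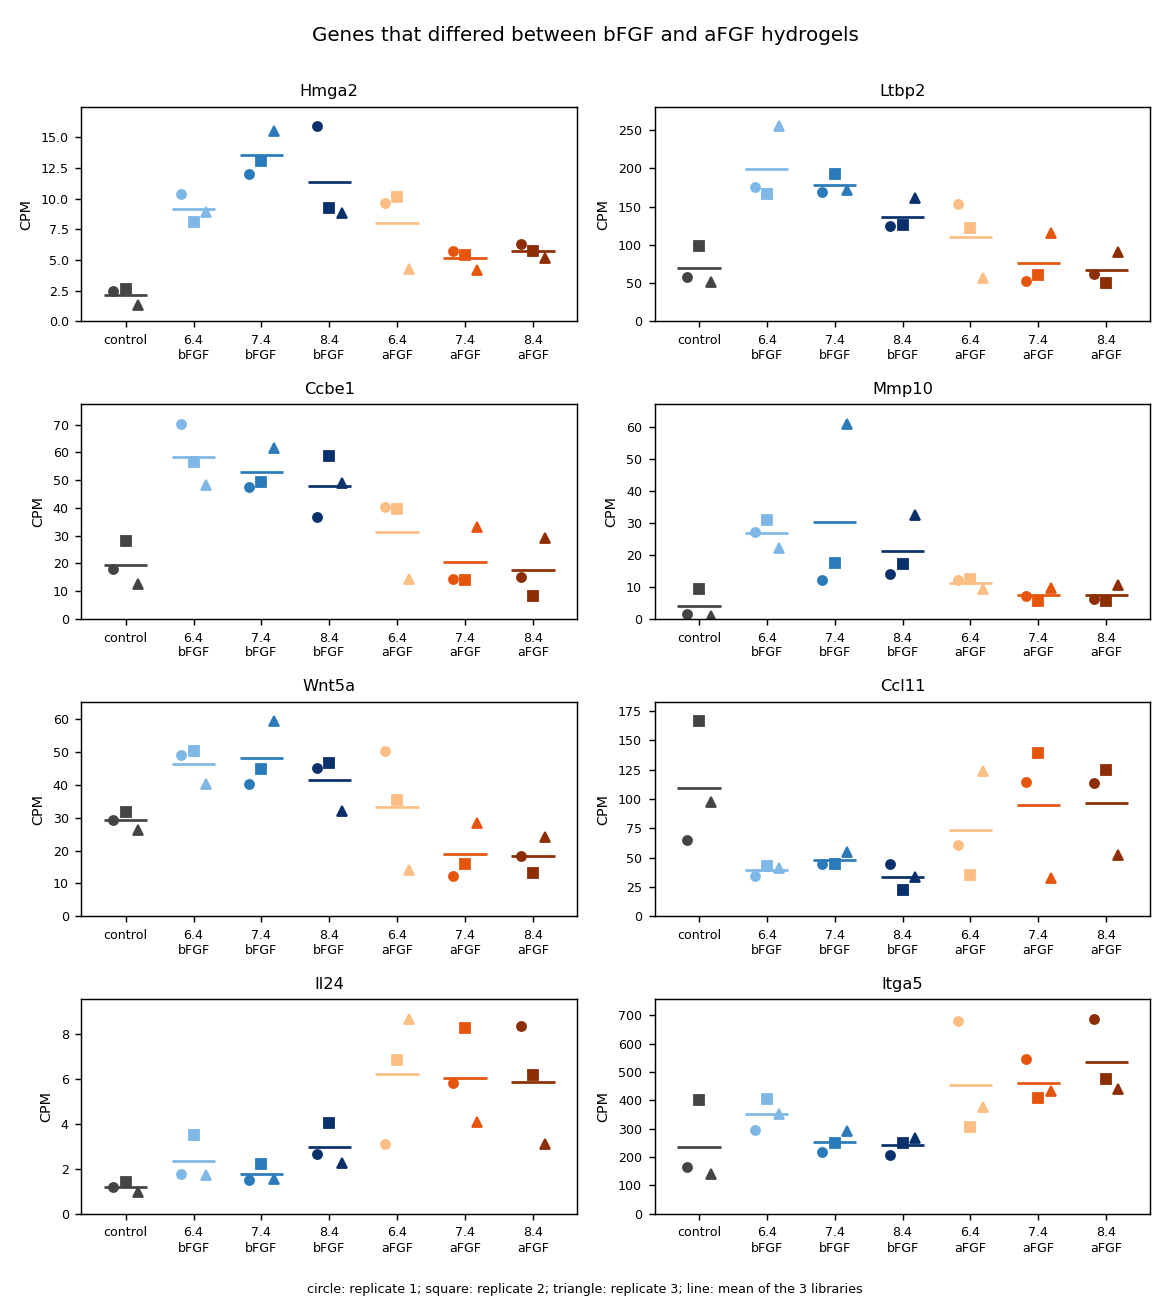
Levels in CPM (y axes, from 0) of 8 genes called between bFGF and aFGF hydrogels, in each library of the control, the 3 bFGF and the 3 aFGF groups (x axes), with group means as lines. Ltbp2, Ccbe1, Mmp10 and Wnt5a were higher with bFGF than with aFGF (Mmp10 12.2 to 60.9 against 5.54 to 12.4 CPM), and Il24 and Itga5 lower (Itga5 206 to 406 against 307 to 687 CPM).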

How the data were processed

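RNA of wound tissue from the control, bFGF and aFGF groups was sequenced from poly(A)-selected stranded libraries. For each library the authors deposited gene-level read counts, not normalized, together with FPKM values. The latter equalled the count divided by a fixed length and the library's total (checked on 12266 genes). The build GRCm39 comes from the submitters' processing notes, and the aligner, the counting and the test are not given in the sources used here. A RefSeq table of another build, used for names only, held 18669 of the 18806 symbols (99.3%). No sequence or coordinate is given.

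The tests on counts used edgeR 4.0.16 under R 4.3.3 (TMM scaling, filterByExpr by group, quasi-likelihood test, 1 coefficient per group, no covariate), and the SE is the log2 fold change over the square root of F. The 12 libraries entered the comparison with the control, 11 without control replicate 2, and all 21 that with aFGF. List levels are means of log2(CPM + 2). Libraries of a group are labelled as biological replicates, differed by more than counting noise, and set the spread that the p-values measure. Floors cover counting error only.

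The members, the 30 gene lists and the removal of control replicate 2 were chosen with earlier results of these data known. Named genes were up to 15 per direction among the genes called without control replicate 2 with all bFGF libraries beyond both remaining controls and a mean of at least 1 CPM, genes of the study's text and stains, and up to 4 per list with the smallest p with all controls. The other named genes (such as Hells, Cdh2, Gatm, the remaining called members of the lists, and genes given as well-known markers) were chosen after their values were seen. Alternatives were DESeq2 1.42.0, RLE, other filters, robust dispersion, a fit of all groups, the replicate number as a block, the bFGF libraries as 1 group, no fold change threshold, limma 3.58.1 on log2(FPKM + 1) or log2(FPKM + 0.1), and leaving out each library. The edgeR, DESeq2 and limma code was tested on simulated data. Some members of the lists are not reported here by name.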

Additional observations from a re-analysis of the deposited data

Results flagged for a closer look

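For 16 of the genes named above, the value against the shared control differed between bFGF and aFGF hydrogels by edgeR's test of the difference itself, over 9 libraries of each. The log2 difference, bFGF minus aFGF, was 0.853 for Hmga2 (adjusted p 0.0109 by edgeR), 1.59 for Mmp10, 1.54 for Mmp13, 1.24 for Ccbe1, 1.03 for Ltbp2, 1.00 for Wnt5a, 0.884 for Srgap3, 0.851 for Scd2, 0.70 for Cdh2 and 0.628 for Col12a1. It was -1.39 for Il24 (adjusted p 0.00551 by edgeR), -1.14 for Ccl11, -0.80 for Wnt7b, -0.795 for Grhl3, -0.794 for Itga5 and -0.665 for Fcgr1. Against the control, Mmp13 had a log2 fold change of 0.926 with bFGF and -0.618 with aFGF when all 3 controls were used. That opposite sign rests on control replicate 2 (126 CPM), since the aFGF libraries (23.9 to 58.4 CPM) were all above control replicates 1 and 3 (21.1 and 19.3 CPM). Both growth factors share the control libraries, and their own tests are not independent. Of 23 alternatives, Srgap3 was called in 8, Fcgr1 in 10, Wnt7b in 15, Col12a1 in 16 and Ccl11 in 20, with an adjusted p by edgeR of up to 0.0993 (Fcgr1 without 8.4-GelMA/aFGF replicate 2), and the other genes in all 23.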

How the results depend on the processing

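With all 3 controls, no gene was called by edgeR under RLE scaling, other filters, robust dispersion or the replicate block, while DESeq2 called 229, the fit of all 7 groups 2, the bFGF libraries as 1 group 7, and limma on FPKM 1 under each of 3 settings (Hmga2). Leaving out 1 library gave 0 to 305 calls, the next highest being 6 without 8.4-GelMA/bFGF replicate 1. Without control replicate 2, DESeq2 called 1198 genes, edgeR without a filter on low counts 172 and limma without a filter 201, against 305. Leaving out 1 more library gave 0 to 803, and the share of higher genes was 46.5% without 7.4-GelMA/bFGF replicate 3 and 53.3% without 8.4-GelMA/bFGF replicate 1, against 65.2%. The replicate number as a block gave 0 calls there. Same-numbered libraries had correlations of deviations from -0.492 to 0.543, over 0.1 in 8 of 18 pairs. Of 12 libraries, 2 correlated best with a library of their own number in another group, so the numbers were not taken as pairing. By pH, DESeq2 called 216, 80 and 155 genes against the control and 16 between pH values. Leaving out 1 library gave 0 to 464 calls for 6.4-GelMA/bFGF, 0 to 5 for 7.4-GelMA/bFGF and 0 for 8.4-GelMA/bFGF. Against aFGF, DESeq2 called 777 and leaving out 1 library gave 269 to 714. The cause of these differences was not tested. The ovary and oviduct median was -0.298 without 8.4-GelMA/bFGF replicate 2, against 0.366. With 2 or 3 controls, a gene that was not called is not shown to be alike.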
